A study of Mus musculus with 14 samples.

Results

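The genes described here encode the protein subunits of mitochondrial respiratory complexes I to V that are read from nuclear DNA, together with close paralogues that carry the same gene names. They were taken by name from the protein-coding genes of the count table, as the Nduf a, b, c, s and v series, Sdha to Sdhd, the Uqcr genes, Cox4 to Cox8 and the Atp5 genes. This gave 85 of 54532 genes, of which 81 had enough reads to be tested: 35 of complex I, 4 of complex II, 8 of complex III, 15 of complex IV, 16 of complex V and 3 outside them. The 4 that were not tested are Cox7b2, Cox8b, Cox8c and a second identifier named Atp5o, which had 0 counts in every library. Bulk RNA-seq was made from tumours of 4T1, a mouse mammary carcinoma line used as a model of triple-negative breast cancer. Mice received 1000000 4T1 cells under the skin of the mammary area, and treatment into the abdominal cavity started 9 days later, when tumours measured about 100 mm3. The groups were PBS (4 libraries), cyclophosphamide (CTX) at 100 mg/kg in PBS (CTX100, 5 libraries) and CTX at 140 mg/kg in PBS (CTX140, 5 libraries), injected every 6 days, with tumours taken on day 3 after cycle 3. Cyclophosphamide is an alkylating drug that crosslinks DNA. Strain, sex and age are not named in the labels used here. Nor do these tie libraries to different animals, and p-values therefore reflect only how far these samples vary, which may be technical.

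Electrons from NADH enter the chain at complex I and those from succinate at complex II; complexes III and IV pass them on to oxygen, and complex V makes ATP from the proton gradient that complexes I, III and IV build. Each complex except complex II mixes nuclear-encoded subunits with a few read from mitochondrial DNA. In complexes I, III, IV and V a catalytic core is surrounded by small accessory subunits that are needed for assembly and stability, and several complex IV subunits exist as a widely expressed form and as a form restricted to muscle, fat or testis.

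The label gives triple-negative breast cancer cells, while the libraries come from whole tumours. All 11 carcinoma epithelium markers were read, with a summed level of 1279 to 1981 CPM (counts scaled to a library of 1000000) in CTX140, 1756 to 2128 in CTX100 and 1446 to 2262 in PBS. Krt8 and Krt18 made up most of this sum. Some rarer markers lay higher in every CTX140 library than in any PBS library. Epcam was at 7.55 to 61.9 CPM in CTX140, 1.23 to 6.41 in CTX100 and 0.546 to 2.77 in PBS. Krt19 was at 13.8 to 125, 5.58 to 16.9 and 1.54 to 6.03 CPM. Krt5, Krt14 and Esrp1 separated these groups too. Other rarer markers overlapped: Krt7 was at 41.7 to 72.8 CPM in CTX140 and 17.9 to 73.4 in PBS. Cdh1 was at 18.0 to 59.3 and 5.44 to 19.1 CPM, and Cldn4 and Cldn7 overlapped as well. The part of epithelial cells in the results was not tested. The 3 receptors whose absence defines the subtype summed to 32.0 to 58.9, 33.9 to 43.9 and 40.8 to 50.2 CPM in CTX140, CTX100 and PBS. They did not move alike. Erbb2 was at 19.7 to 26.7 CPM in CTX140 and 32.7 to 36.0 in PBS. Esr1 overlapped, at 7.98 to 23.2 and 7.99 to 16.1 CPM. Pgr was at 0.410 to 8.93 CPM in CTX140 and 0 to 0.137 in PBS, where it had 2 counts in all. The fibroblast sum (10 of 10 genes tested, none at 0 throughout) was higher in every CTX140 library than in any PBS library. It was 2399 to 6857 CPM in CTX140, 1362 to 2378 in CTX100 and 777 to 1312 in PBS. Pdgfra of that list did not follow, at 41.1 to 98.7 CPM in CTX140 and 54.4 to 180 in PBS. The white adipocyte list (7 of 8 tested, none at 0 throughout) summed to 115 to 622, 52.0 to 183 and 7.36 to 55.9 CPM in the same 3 groups. Macrophage sums (696 to 3330 and 976 to 1494 CPM) and neutrophil sums (640 to 2046 and 817 to 1714 CPM) overlapped between CTX140 and PBS. In bulk tissue, fewer cells of a type and less RNA per cell cannot be told apart. Library totals were 14.4 to 19.3 in units of 1000000 counts.

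Levels between genes can be set side by side only per length, as FPKM (fragments scaled to gene length and to a constant for each library). Complex IV held the most abundant transcript, Cox8a, the widely expressed form of subunit 8, at 511 ± 61.3 FPKM for the 4 PBS libraries, 559 ± 84.3 for the 5 of CTX100 and 589 ± 46.1 for the 5 of CTX140 (mean ± SD). The highest member of complex I was Ndufa2, a small accessory subunit, with a mean of 264 FPKM over all libraries. Complex V was led by Atp5b, the catalytic beta subunit, at 240.4 FPKM, complex III by Uqcr11, a small subunit, at 203 FPKM, and complex II by Sdhd, a membrane anchor, at 127 FPKM. The median over the tested genes of a complex was 55.9 FPKM in PBS, 67.1 in CTX100 and 75.4 in CTX140 for complex I, and 64.6, 71.0 and 69.7 FPKM for complex II. For complex III it was 91.4, 103 and 117 FPKM, for complex IV 99.0, 115 and 135, and for complex V 107, 114 and 111. At the low end stood the tissue-restricted forms of complex IV and 1 ordinary subunit: Ndufb2, an accessory subunit of complex I, was listed at 1.91 FPKM against a median of 67.3 FPKM for its complex. The table gives Ndufb2 a length of 5628 bases and lays another gene model, Gm42420, over it on the same strand, and Gm42420 itself had 0 CPM in every group. The part of that overlap in the low value was not tested.

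**Figure D1:**
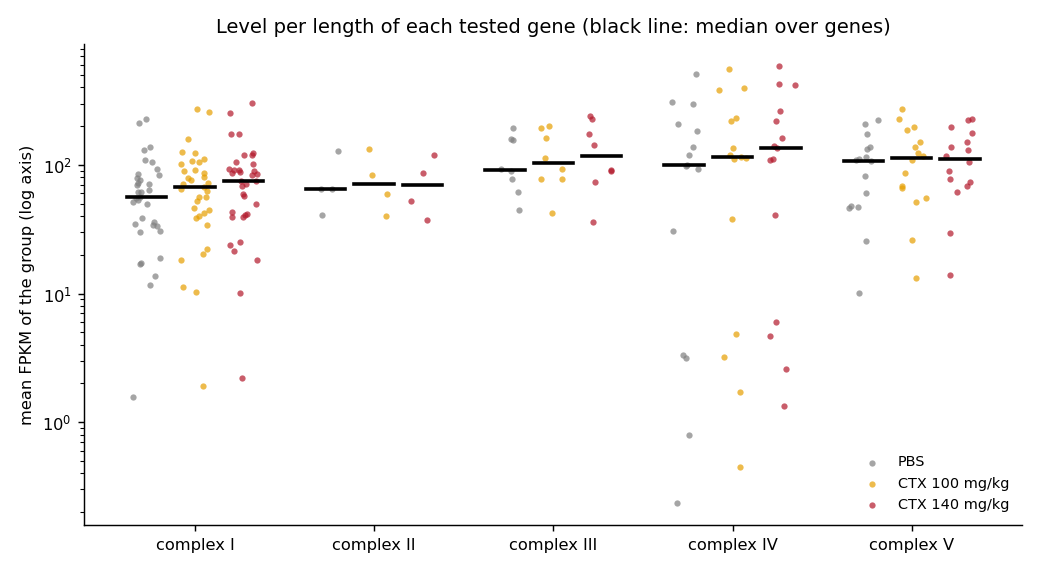
Mean FPKM (log axis) of each tested gene in PBS (grey), CTX100 (orange) and CTX140 (red), by complex; points are genes and black lines medians over genes. The complex I median is 55.9 in PBS and 75.4 in CTX140, while that of complex V is 107 and 111; the low points are Ndufb2 in complex I and the tissue-restricted forms in complex IV.

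The promoters of these genes are described by their letters, and 1 of the genes shares its start region with a gene of a known activator. The part of promoters in any level or change given here was not tested. NRF1, GABP (an ETS factor) and YY1 are established activators of respiratory chain genes. RefSeq windows on GRCm38.p6, from 250 bases before to 50 after each start, were found for 64 of the 81 tested genes. Both strands were searched, overlaps between motifs were allowed, and a match is a description of letters and not a site of binding. The letters for NRF1 (GCGC, then any base, then TGCGC) occurred in 17 of 64 (26.6%), against 5.19% of 27025 genes with a window. CCGGAAG (ETS) occurred in 16 (25%, against 9.93%) and AAGATGGC (YY1) in 9 (14.1%, against 3.19%). The 27025 genes include ones not tested here, while all 64 members had enough reads to be tested. The shares are therefore not set against like genes, and those among tested genes alone were not taken. The stretch between the starts of Atp5j, which encodes coupling factor 6 of the complex V stalk, and Gabpa, which encodes the DNA-binding subunit of GABP, is 147 bases long (chr16:84834977-84835123, plus strand); capitals mark the ETS letters and then the YY1 letters, both on the opposite strand to the one printed.
Atp5j-Gabpa: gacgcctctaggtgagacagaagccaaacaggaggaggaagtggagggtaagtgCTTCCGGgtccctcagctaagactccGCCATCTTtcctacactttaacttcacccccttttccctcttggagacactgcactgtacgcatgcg
The next 3 are the 150 bases before the RefSeq start of the members with the smallest p within complexes I and IV, all on the minus strand: Ndufs6 at chr13:73328483-73328632, Ndufa1 at chrX:37191239-37191388 and Cox6b2 at chr7:4753095-4753244. Capitals mark the NRF1 letters in Ndufs6, and these 150 bases of the other two hold none of the 3 motifs.
Ndufs6: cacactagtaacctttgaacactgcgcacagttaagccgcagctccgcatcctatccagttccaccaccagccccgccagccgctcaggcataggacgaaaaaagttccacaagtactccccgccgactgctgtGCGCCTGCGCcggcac
Ndufa1: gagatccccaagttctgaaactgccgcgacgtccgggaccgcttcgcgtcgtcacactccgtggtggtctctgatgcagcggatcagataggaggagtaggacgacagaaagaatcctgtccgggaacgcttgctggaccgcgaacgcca
Cox6b2: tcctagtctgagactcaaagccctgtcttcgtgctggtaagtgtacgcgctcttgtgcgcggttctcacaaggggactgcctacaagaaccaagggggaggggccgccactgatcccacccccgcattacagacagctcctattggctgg
The other 3 genes called higher at CTX140 with an NRF1 match are shown by 1 match each (Cox6a1 has it at 2 places), with 5 bases on each side, with capitals on the match: Atp5o (chr16:91931607-91931626, minus strand), Cox6a1 (chr5:115349106-115349125, minus strand) and Ndufa11 (chr17:56717697-56717716, plus strand).
Atp5o: cgcgcGCGCGTGCGCtctgg
Cox6a1: acgggGCGCATGCGCgctct
Ndufa11: actgcGCGCATGCGCgcacg

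Within each treatment group most of the respiratory chain genes were highest in the same library. In PBS and CTX100 most were also lowest in the same library. For every tested gene the deviation of a library from the PBS mean was taken on the log2(CPM + 1) scale, and the median over the 81 genes was 0.02, 0.36, -0.03 and -0.34 in PBS 1 to 4. In CTX100 1 to 5 it was -0.01, 0.02, 0.27, 0.28 and 0.44, and in CTX140 1 to 5 it was 0.24, 0.53, 0.41, 0.17 and 0.23. Thus PBS 4 lay below all other libraries and PBS 2 above 3 of the 5 CTX140 libraries. PBS 2 was the highest PBS library for 66 of 81 genes, against 28.4% of all 15360 genes tested, and PBS 4 the lowest for 74 of 81, against 23.5%. In CTX100, replicate 5 was highest for 60 genes (against 23.1% of all genes) and replicate 1 lowest for 46 (against 20.1%). In CTX140, replicate 2 was highest for 49 (against 20.7%). The lowest CTX140 values were spread over replicate 1 (29 genes), replicate 4 (31) and replicate 5 (19). The 85 genes together took 1.36 ± 0.10% of counts in CTX140 (SD, n = 5) and 1.35 ± 0.10% in CTX100 (n = 5), against 1.17 ± 0.18% in PBS (n = 4), with single PBS libraries at 1.25, 1.39, 1.09 and 0.970%.

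**Figure D2:**
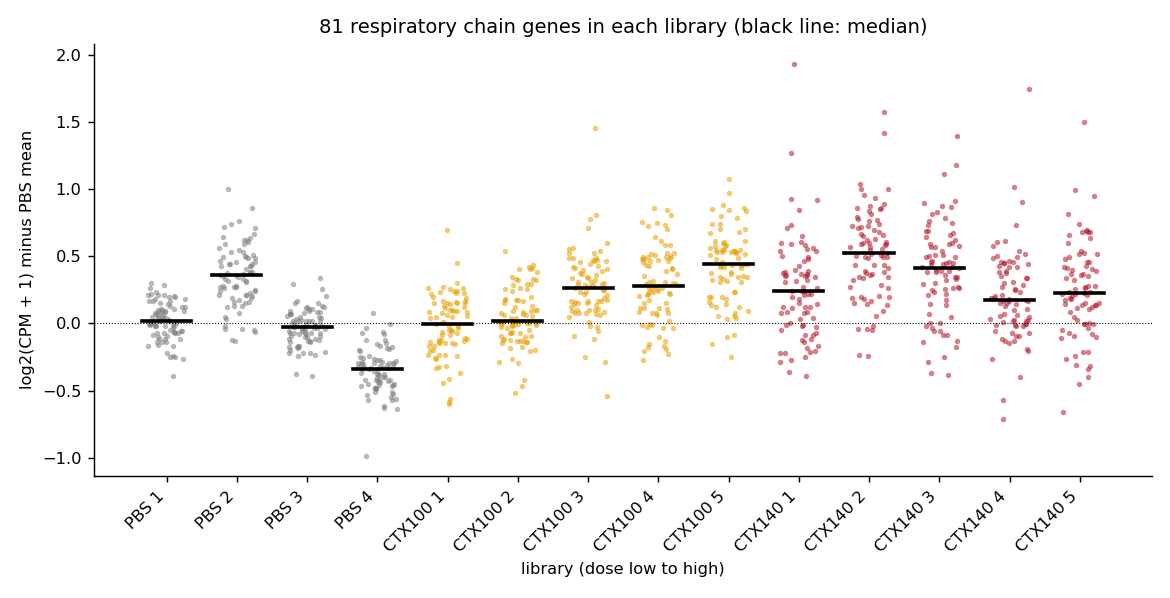
Deviation of each of the 81 tested genes from its PBS mean, log2(CPM + 1), in every library from PBS (grey) through CTX100 (orange) to CTX140 (red); points are genes and black lines medians. The medians run from -0.34 in PBS 4 to 0.53 in CTX140 2, and PBS 2, at 0.36, lies among the CTX140 libraries.

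Other genes moved with these libraries. The shortest 25% of genes tested (listed length up to 2284 bases) deviated by a median of 0.15 in PBS 2 and -0.12 in PBS 4, and by 0.09 to 0.18 in CTX140; the longest 25% deviated by -0.14 and 0.10 in PBS 2 and PBS 4, and by -0.19 to -0.07 in CTX140. Genes of the mitochondrial ribosome deviated by 0.32 in PBS 2 and -0.26 in PBS 4, and those of the cytosolic ribosome by 0.40 and -0.38. The part of gene length in the results was tested in 1 way only, by removing the length trend of each library, after which the members' median log2 fold change at CTX140 was 0.22 in place of 0.33, 64 lay above 0 in place of 67, and 11 were called higher and 3 lower in place of 13 and 1. Reads of mitochondrially encoded protein genes did not follow the same order: their share was 5.73% in PBS 2 and 5.02% in PBS 4, and it was highest in CTX140 1, at 9.55%, where the nuclear genes deviated by 0.24.

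The comparison of CTX140 with PBS asks what the higher dose changed. Of the 81 genes, 13 were called higher and 1 lower (edgeR quasi-likelihood test, Benjamini-Hochberg adjusted p under 0.05 over all 15360 genes), or 17.3%. Of all genes tested, 21.3% were called, 11.1% higher and 10.1% lower. The share of members called was below that of all genes in this fit and in 13 of 21 alternatives, and above it in the other 8. The median log2 fold change of the 81 was 0.33, against 0.02 over all genes, and 67 of 81 were above 0, against 52.2% of all genes. The members' median was 0.18 without PBS 4 and 0.48 without PBS 2. At an unadjusted p under 0.05 stood 36 of the 81, against 35.7% of all genes. In 4 genes every CTX140 library lay above every PBS library, against 7.34% of all genes, and in 1 every library lay below, against 6.91%; this too is no more than the background. The number of calls depended on single libraries: leaving out PBS 2 gave 39 called members (47.6% of those tested, against 24.8% of all genes). Leaving out PBS 4 gave 6 (7.32%, against 12.8%), PBS 3 gave 4 (4.88%, against 12.6%) and PBS 1 gave 8 (9.76%, against 19.7%). With PBS 2 and PBS 4 both left out 12 were called (14.6%, against 12.4%). Leaving out a CTX140 library gave 14 calls without replicate 1, 8 without replicate 2, 6 without replicate 3, 16 without replicate 4 and 14 without replicate 5, in each case a smaller share than that of all genes. Cox6b2, Ndufs6 and Ndufa4l2 were called in all 21 alternative settings tried, and Ndufa1 and Uqcrq in 20 of 21. Of these, Cox6b2 had enough reads to be tested only through its CTX140 libraries.

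**Figure D3:**
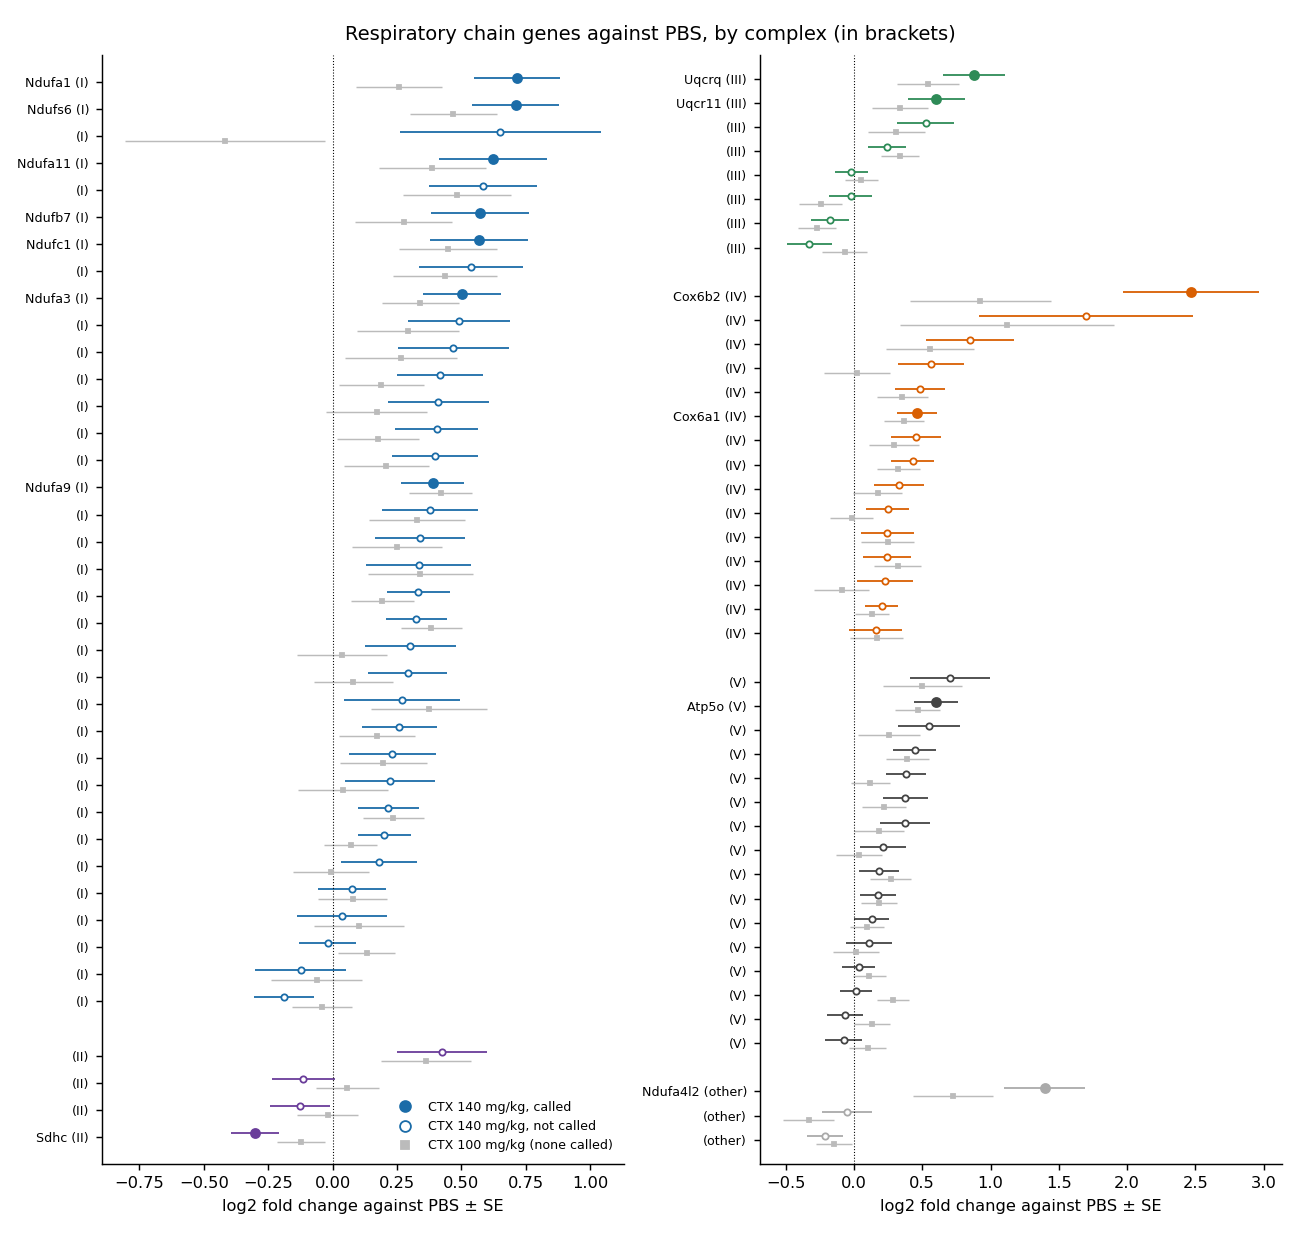
Log2 fold change against PBS ± SE of the 81 tested genes, sorted within complexes (in brackets) and named where called at CTX140: circles, CTX140 (filled where called); grey squares, CTX100. Most circles lie right of 0 (67 of 81), and among called genes Cox6b2 has the highest value, at 2.47, and Sdhc the lowest, at -0.30.

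Complex I, with 35 of the 81 genes tested, held 7 of the 13 called higher. That is 20% of its genes, against 11.1% of all genes called higher and 21.3% called in either direction. All 7 were accessory subunits (7 of 28). None of its 7 core subunits, which carry the flavin and iron-sulfur clusters, was called. The median log2 fold change of the core subunits was 0.26, against 0.40 for the accessory subunits. This difference between subunit classes was not tested. Ndufa1, a small X-linked accessory subunit needed for assembly (ENSMUSG00000016427, mm10 chrX:37187588-37191163), had 84.2, 88.8, 76.1, 52.2 and 60.4 CPM in CTX140, against 42.9, 50.5, 46.4 and 36.5 CPM in PBS. Every CTX140 library lay above every PBS library, and the log2 fold change was 0.72 ± 0.17 (SE, adjusted p = 0.00777). The call held when any single library was left out; without both PBS 2 and PBS 4 the log2 fold change was 0.67 and the adjusted p 0.0508. Ndufs6, a zinc-binding accessory subunit (ENSMUSG00000021606, chr13:73319838-73328542), had 66.4, 79.4, 84.3, 76.2 and 73.4 CPM in CTX140 and 51.7, 58.3, 43.1 and 32.6 CPM in PBS. Again the groups did not overlap, with a log2 fold change of 0.71 ± 0.17 (adjusted p = 0.00852). Mrpl36, a mitochondrial ribosome gene that the table lays over it on the opposite strand, averaged 45.7 ± 7.61 CPM in CTX140 (SD, n = 5) and 33.5 ± 7.15 in PBS (n = 4) and was called too, at 0.45 ± 0.15 on the log2 scale (adjusted p = 0.0412). Whether counting used strand is not given in the sources used here, and reads of such overlapping genes cannot be told apart.

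The other 5 calls in complex I were smaller or less stable. Ndufa3, a membrane-arm subunit, had 81.8, 89.1, 81.9, 60.9 and 72.2 CPM in CTX140 and 48.9, 67.6, 51.8 and 49.4 CPM in PBS, where replicate 2 stood apart from the other 3 and overlapped the CTX140 range. Its log2 fold change was 0.50 ± 0.15 (adjusted p = 0.0272); it too has an opposite-strand neighbour, Tfpt, at 0.55 ± 0.18. Ndufa9, which sits at the junction of the matrix and membrane arms, had 74.4, 93.0, 86.7, 86.6 and 75.7 CPM in CTX140 and 67.7, 74.5, 63.9 and 48.5 CPM in PBS, a log2 fold change of 0.39 ± 0.12 (adjusted p = 0.0322). The lowest CTX140 library lay just below PBS 2. The remaining calls, Ndufb7, Ndufc1 and Ndufa11, had log2 fold changes of 0.57, 0.57 and 0.62 with adjusted p of 0.0424 to 0.0451, and each was kept in only 10 or 11 of 21 settings. Ndufa12, an accessory subunit needed for assembly, was the least steady abundant member, at 37.9, 18.95, 14.7, 40.6 and 57.1 CPM in CTX140, 12.5, 13.8, 17.9, 16.5 and 20.1 in CTX100 and 20.1, 36.3, 20.7 and 9.34 in PBS. It varied 6.11-fold over the libraries and edgeR called it in no contrast: the log2 fold change was 0.65 ± 0.39 for CTX140 against PBS (adjusted p = 0.249) and 1.07 ± 0.37 for CTX140 against CTX100 (adjusted p = 0.117). Values below 0 in complex I included those of Ndufs1, the core subunit with the most iron-sulfur clusters, at -0.19 ± 0.12 (adjusted p = 0.254), and of the accessory subunit Ndufc2, at -0.12.

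Complex II, which is also succinate dehydrogenase of the citric acid cycle and has no mitochondrially encoded subunit, had a median log2 fold change of -0.12, the only complex below 0; its difference from the others was not tested. Sdhc, a membrane anchor that helps bind haem and ubiquinone (ENSMUSG00000058076, chr1:171127165-171150603), had 163, 178, 172, 159 and 181 CPM in CTX140 and 215, 204, 223 and 198 CPM in PBS. All 5 CTX140 libraries lay below all 4 PBS libraries. The log2 fold change was -0.30 ± 0.09 (adjusted p = 0.0314), and the call was kept in 12 of 21 settings. The 95% interval ran from -0.48 to -0.12. Sdhb, the iron-sulfur subunit, had 182, 240, 199, 174 and 182 CPM in CTX140 and 156, 205, 120 and 101 CPM in PBS, a log2 fold change of 0.42 ± 0.18 (adjusted p = 0.0936). Only PBS 2 reached the CTX140 range. Sdha, the flavoprotein, and Sdhd, the other anchor, had log2 fold changes of -0.13 ± 0.12 and -0.11 ± 0.12, with adjusted p of 0.468 and 0.531 and 95% intervals of -0.36 to 0.10 and -0.35 to 0.13. Sdhc and Sdhb thus stood on opposite sides of 0, and with the length trend removed, Sdhc was still called lower.

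In complex III, 2 of 5 small subunits were called higher and none of the 3 core and Rieske subunits. Over all genes tested 11.1% were called higher, and these classes are too small for their shares to be set beside that. Uqcrq, a small subunit at the ubiquinone-binding side of the complex (ENSMUSG00000044894, chr11:53427922-53430831), had 224, 276, 290.4, 251 and 268 CPM in CTX140 and 136, 228, 118 and 86.7 CPM in PBS. PBS 2 lay within the CTX140 range and the other 3 PBS libraries far below it. The log2 fold change was 0.88 ± 0.23 (adjusted p = 0.0137). It was 1.20 without PBS 2 and 0.69 without PBS 4, and the call was lost without PBS 3 (adjusted p = 0.0532). Uqcr11 had 150.3, 178, 175, 128 and 142 CPM in CTX140 and 106, 145, 88.8 and 67.7 CPM in PBS, at 0.60 ± 0.21 (adjusted p = 0.0487), kept in 9 of 21 settings. Here too PBS 2 alone among PBS libraries lay within the CTX140 range. Uqcrc2, a core subunit, had the lowest log2 fold change of all 81 genes, -0.33 ± 0.16, which was not called (adjusted p = 0.165). In all, 4 of the 8 lay above 0; the small subunits Uqcrh and Uqcrb were at -0.17 and -0.02.

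Among the 11 widely expressed complex IV subunits all log2 fold changes were above 0, from 0.16 to 0.48, as were 67 of all 81 members and 52.2% of all genes. Of the 11, 1 was called higher (9.09%, against 11.1% of all genes). Cox6a1, a regulatory subunit on the outer face of the complex (ENSMUSG00000041697, chr5:115345642-115348981), had 280.2, 337, 302, 295 and 287 CPM in CTX140 and 228, 286, 207 and 151 CPM in PBS. The groups met only at PBS 2. The log2 fold change was 0.46 ± 0.15 (adjusted p = 0.0343), kept in 12 of 21 settings. Cox5a, which encodes a subunit on the matrix side, had every CTX140 library (74.0, 122, 74.9, 87.3 and 74.0 CPM) above every PBS library (73.4, 72.5, 60.4 and 50.3 CPM), and was not called (0.43 ± 0.16, adjusted p = 0.0616); CTX140 2 stood well above the other 4. Cox8a, the most abundant member, had a log2 fold change of 0.20 ± 0.12 (adjusted p = 0.257).

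Values in complex V are given by subunit class, between which the difference was not tested. Of the 5 subunits of the catalytic F1 part the median log2 fold change was 0.03 and none was called. Atp5b had 810.3, 1071, 939, 1004 and 956 CPM in CTX140 and 1075, 993, 932 and 779.9 CPM in PBS, a log2 fold change of 0.02 ± 0.12 with a 95% interval of -0.22 to 0.25. The groups overlapped over nearly their whole range. Atp5e, the small epsilon subunit, had the highest F1 value, 0.70 ± 0.29 (adjusted p = 0.0991). Over the 11 tested subunits of the membrane part and stalks the median was 0.37, and 1, Atp5o, was called higher (9.09%, against 11.1% of all genes). Atp5o, the stalk protein that confers oligomycin sensitivity (ENSMUSG00000022956, chr16:91925214-91931687), had 129, 172, 165, 110.0 and 145 CPM in CTX140 and 110.0, 118, 81.0 and 71.6 CPM in PBS, at 0.60 ± 0.16 (adjusted p = 0.0171), kept in 17 of 21 settings. PBS 1 equalled the lowest CTX140 library to the digits given, PBS 2 lay above it, and the other 2 lay below all of CTX140.

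**Figure D4:**
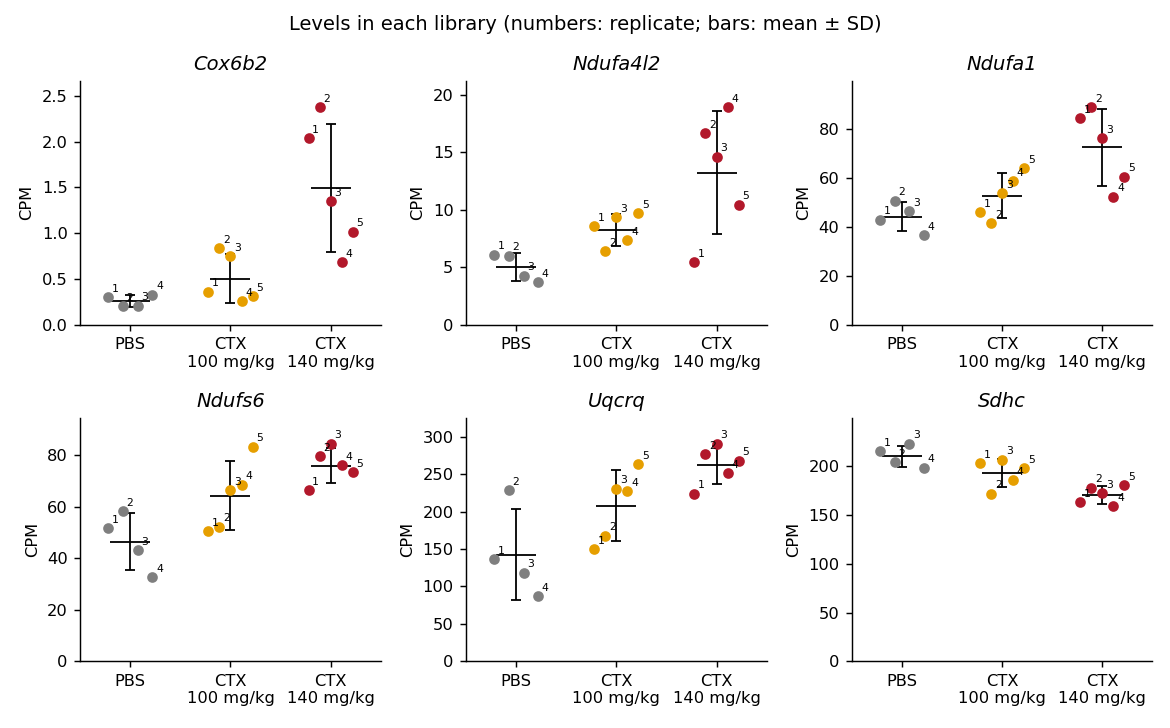
CPM in each library of 5 genes called higher and 1 called lower at CTX140 against PBS; points are libraries with their replicate number, bars the mean ± SD, groups from PBS to CTX140. All CTX140 points lie above all PBS points in Cox6b2, Ndufa1 and Ndufs6, and below them in Sdhc, while PBS 2 reaches the CTX140 range in Uqcrq.

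Of the 7 tissue-restricted complex IV forms, 4 could be tested, and all were rare. Their median log2 fold change of 1.27 takes in Cox6b2, which had enough reads to be tested only through its CTX140 libraries. Cox6b2, the testis form of subunit 6b (ENSMUSG00000051811, chr7:4751792-4753094), had 34, 40, 22, 10 and 19 counts in CTX140 and 5, 3, 3 and 6 counts in PBS. That is 2.04, 2.38, 1.35, 0.683 and 1.02 CPM in CTX140 and 0.301, 0.205, 0.210 and 0.329 CPM in PBS, and the groups did not overlap. In CTX100 it had 6, 14, 15, 4 and 5 counts. The log2 fold change of 2.47 ± 0.50 (adjusted p = 0.00305), or 5.53-fold, was the highest of the 81. Because Cox6b2 passed the filter through the group where it is high, this value and its rank are not independent of the filter. Per length, Cox6b2 made up 0.238 to 0.773% of the FPKM that it and its widely expressed partner Cox6b1 hold together in CTX140, and 0.0652 to 0.202% in PBS. Cox6b1 itself had a log2 fold change of 0.33 ± 0.18 (adjusted p = 0.207). The fibroblast and adipocyte marker sums given above moved in the same direction as Cox6b2, and their part in it was not tested.

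Of the forms of heart and skeletal muscle, Cox6a2 and Cox8b were highest in the same pair of libraries. Cox6a2 had 4.73, 1.72, 1.23, 0.478 and 0.642 CPM in CTX140, 0.422, 0.597, 3.11, 0.519 and 1.18 in CTX100, and 0.844, 0.956, 0.140 and 0.220 in PBS. CTX140 1 and CTX100 3 stood far above all other libraries. The log2 fold change against PBS was 1.70 ± 0.78 (adjusted p = 0.133). Cox8b, too rare to test, had 34, 21, 6, 0 and 1 counts in CTX140, 3, 1, 26, 0 and 0 in CTX100 and 0, 0, 0 and 1 in PBS, with its highest counts in those libraries too. In CTX100 3 the skeletal muscle list (4 of 10 genes tested, none at 0 throughout) summed to 230.1 CPM, against 3.91 to 19.5 CPM in every other library. In CTX140 1 that sum was 9.71 CPM, while the white adipocyte sum was 622 CPM, the highest of all libraries. The T cell list summed highest there too, at 447 CPM against at most 145 in any other library, as did blood endothelium, at 219 CPM, and the 3 receptors above. Epcam, at 61.9 CPM, and Krt19, at 125 CPM, were highest there as well. The part of these cells in the Cox6a2 and Cox8b values was not tested. Ucp1, which defines brown fat, had 8 counts over all CTX140 libraries, 5 over CTX100 and 2 over PBS. Cox7a1, the muscle and brown fat form of subunit 7a, was not highest in those libraries (2.22 CPM in CTX140 1 and 2.35 CPM in CTX100 3, against up to 4.11 CPM elsewhere). Cox7a1 and Cox4i2, a form of lung and vascular smooth muscle, had log2 fold changes of 0.85 ± 0.32 (adjusted p = 0.0673) and 0.57 ± 0.24 (adjusted p = 0.103). The pericyte and smooth muscle list (9 of 9 tested, none at 0 throughout) summed to 121 to 254 CPM in CTX140 and 81.0 to 167 CPM in PBS. Acta2 (48.8 to 102 and 15.3 to 26.9 CPM), Myh11 and Notch3 lay higher in every CTX140 library than in any PBS library. The rest of the list overlapped, with Rgs5 at 18.5 to 85.9 and 19.3 to 74.8 CPM and Pdgfrb at 27.6 to 46.3 and 24.5 to 44.4. The part of these cells in the Cox7a1 and Cox4i2 values was not tested. The testis forms Cox7b2 and Cox8c had at most 1 count in any library.

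**Figure D5:**
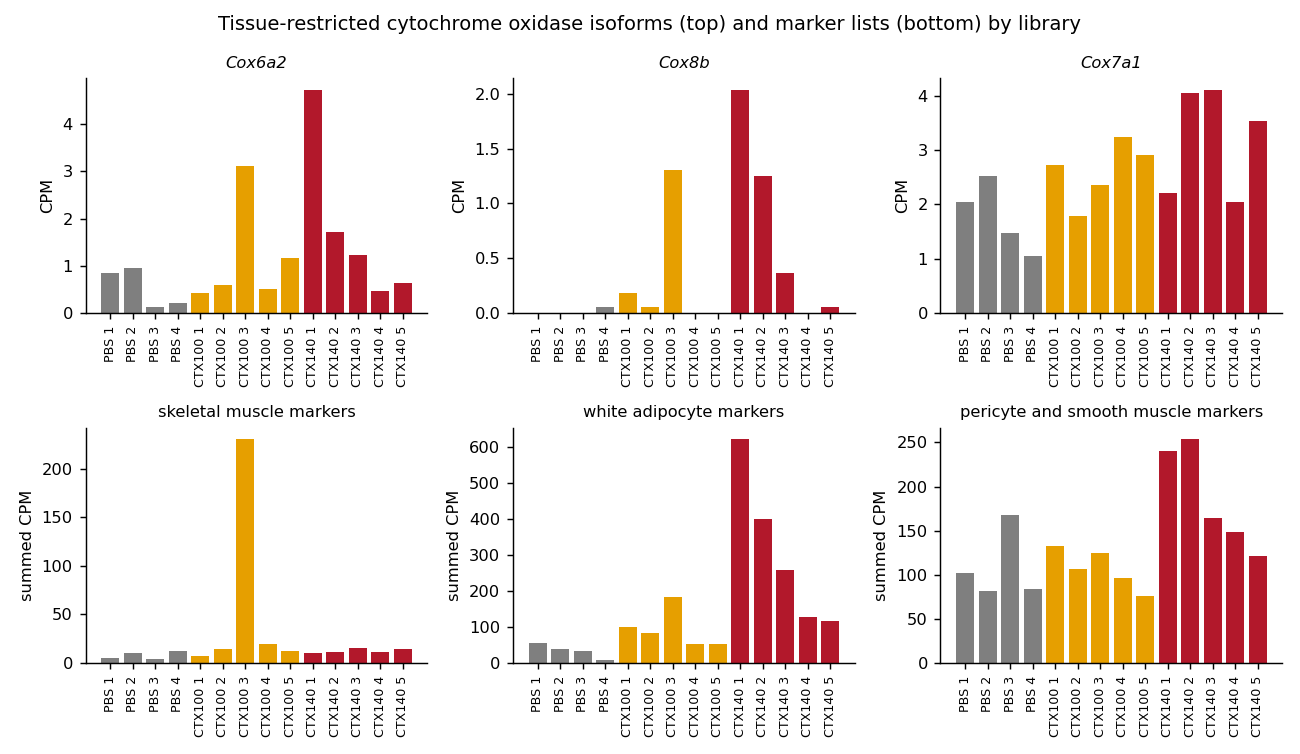
CPM of Cox6a2, Cox8b and Cox7a1 (top) and summed CPM of 3 marker lists (bottom) in each library; grey, PBS; orange, CTX100; red, CTX140. Cox6a2 and Cox8b are highest in CTX140 1 and CTX100 3; the skeletal muscle sum is 230.1 in CTX100 3 and at most 19.5 elsewhere, and the adipocyte sum is highest in CTX140 1, at 622.

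Outside the complexes, Ndufa4l2 was called. It is a paralogue of Ndufa4, which is now counted as a complex IV subunit, and it is known as a hypoxia-induced gene and a pericyte marker (ENSMUSG00000040280, chr10:127514967-127517154). Its level was 5.45, 16.6, 14.6, 18.9 and 10.4 CPM in CTX140 and 6.09, 6.01, 4.26 and 3.68 CPM in PBS. All CTX140 libraries except replicate 1 lay above all PBS libraries, at a log2 fold change of 1.40 ± 0.30 (adjusted p = 0.00427). The pericyte and smooth muscle sums are given above, and the part of these cells or of hypoxia in the value was not tested. Of the hypoxia and glycolysis list, 0 entries were called higher and 1 of 17 lower at CTX140 against PBS, with a median log2 fold change of -0.17. At CTX100 against PBS 15 of the 17 lay above 0 (against 48.3% of all genes), with a median of 0.10 and none called. Between the doses all 17 entries lay below 0, with a median of -0.35 and none called. Shmt2, laid over Ndufa4l2 on the opposite strand and far more abundant, averaged 142 ± 39.7 CPM in CTX140 (SD, n = 5) and 104 ± 24.5 in PBS (n = 4), a value of 0.45 ± 0.19 on the log2 scale (adjusted p = 0.1). Ndufa4 itself was not called (0.24 ± 0.17, adjusted p = 0.338). Ndufa4l2 made up 5.18 to 14.8% of the FPKM of the pair in CTX140 and 4.13 to 5.598% in PBS. The other 2 genes of this kind, the supercomplex factor Cox7a2l and Atp5s, had -0.21 ± 0.13 (adjusted p = 0.266) and -0.05 ± 0.18 (adjusted p = 0.868).

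At the lower dose none of the 81 genes was called against PBS by edgeR, where 1.60% of all genes were; 14 of the 81 had an unadjusted p under 0.05, against 17.9% of all genes, and DESeq2 called 1, Ndufa9. Both doses are set against the same 4 PBS libraries, so their values are not independent. The median log2 fold change was 0.20, against -0.01 over all genes, and 68 of 81 were above 0, against 48.3% of all genes. It was 0.09 without PBS 4 and 0.36 without PBS 2. With PBS 2 left out 9 members were called (11.0%, against 4.37% of all genes), and with any other single library left out 0. In 3 genes all CTX100 libraries lay above all PBS libraries, against 5.17% of all genes, and in 0 all lay below, against 3.55%. Ndufa9 was one of them, at 75.7, 84.8, 88.4, 91.1 and 85.4 CPM in CTX100 and the PBS values given above, a log2 fold change of 0.42 ± 0.12 (edgeR adjusted p = 0.0851). The next was Ndufa4l2, at 8.57, 6.39, 9.37, 7.34 and 9.71 CPM in CTX100 (0.72 ± 0.29, adjusted p = 0.206). The third, Atp5b, had 1108, 1182, 1161, 1103 and 1202 CPM in CTX100, and its lowest library lay above the highest PBS one at 1075 CPM (0.28 ± 0.12, adjusted p = 0.222). By role, median log2 fold changes were 0.24 for complex I accessory and 0.13 for core subunits, 0.02 for complex II, 0.18 for complex III, 0.25 for widely expressed complex IV subunits, 0.27 for the F1 part and 0.18 for the membrane part and stalks of complex V.

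Between the doses, CTX140 against CTX100, none of the 81 was called, against 1.25% of all genes; 6 had an unadjusted p under 0.05, against 22.3% of all genes. DESeq2 called 2 higher, Cox6b2 at 1.56 ± 0.48 (adjusted p = 0.0279) and Ndufa12 at 1.07 ± 0.34 (adjusted p = 0.0336). The median log2 fold change was 0.12, against 0.03 over all genes, and 55 of 81 were above 0, against 53.4% of all genes. It was 0.07 without CTX140 2, 0.07 without CTX100 1 and 0.08 without CTX100 2. Cox6b2 had 0.362, 0.836, 0.751, 0.260 and 0.309 CPM in CTX100 and the CTX140 values above; CTX140 4 lay within the CTX100 range, and the log2 fold change was 1.54 ± 0.42 (adjusted p = 0.067). Ndufa1 had 45.8, 41.5, 53.7, 58.5 and 63.9 CPM in CTX100, overlapping the lower CTX140 libraries, at 0.46 ± 0.16 (adjusted p = 0.11). In no member did all CTX140 libraries lie above all CTX100 libraries, against 2.33% of all genes. Atp5b was the only member whose groups did not overlap, with CTX140 below CTX100 throughout, at -0.27 ± 0.11 (adjusted p = 0.171), against 3.71% of all genes that lay below in this way. For Sdhc, at 203, 172, 207, 186 and 198 CPM in CTX100, the difference was -0.18 ± 0.09 (adjusted p = 0.249), and its CTX100 range overlapped both other groups.

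Of genes that act with the chain, given for CTX140 against PBS, few were called. Among 12 tested regulators of mitochondrial gene expression, 0 were called higher and 1 lower: Gabpa averaged 45.6 ± 3.97 CPM in CTX140 (SD, n = 5) and 70.6 ± 15.1 in PBS (n = 4), ranging from 40.4 to 50.6 and from 54.3 to 88.3 CPM without overlap. Its log2 fold change was -0.63 ± 0.13 (adjusted p = 0.00328). Atp5j, which starts 147 bases away in the other direction, had 206, 199.7, 185, 168 and 209 CPM in CTX140 and 136, 179, 144 and 135 CPM in PBS, at 0.38 ± 0.14 (adjusted p = 0.0679), so this pair lay on opposite sides of 0. The table lays the models over each other on opposite strands, and RefSeq lists a second start for Atp5j. Of the genes for the other factors named above, Nrf1 had -0.12 ± 0.12 on the log2 scale (adjusted p = 0.4934) and Yy1 -0.29 ± 0.10 (adjusted p = 0.0513). The remaining regulators tested, none called, were Tfam (-0.18), Gabpb1 (-0.10), Pprc1 (0.12), Esrra (0.26), Tfb2m (-0.28), Polrmt (0.08), Tfb1m (0.02), Perm1 (-0.10) and Ppargc1b (0.47); Ppargc1a, a co-activator of mitochondrial genes, was too rare to test, at a mean of 0.096 CPM in CTX140 and 0.0275 in PBS. Over members with an NRF1 match the median was 0.38 on the same scale, and over the 47 without one 0.33.

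Among 16 tested assembly factors of complex I, 1 was called higher and 1 lower. Ecsit rose at both doses, to 27.4 ± 2.57 CPM in CTX140 and 24.2 ± 3.54 in CTX100 (SD, n = 5 each), against 16.1 ± 2.53 in PBS (n = 4), with log2 fold changes of 0.77 ± 0.14 (adjusted p = 0.00172) and 0.59 ± 0.14 (adjusted p = 0.045). Acad9, a partner of Ecsit in complex I assembly, was called lower at -0.43 ± 0.14 (adjusted p = 0.0352). The soluble electron carrier Cycs and the complex III subunit cytochrome c1, Cyc1, which the naming pattern does not take, rose by 0.53 ± 0.16 (adjusted p = 0.027) and 0.44 ± 0.12 (adjusted p = 0.0158); they were 2 of 5 in their list. Of 20 complex IV assembly factors 2 were called higher, Cox10 (0.49) and Cmc2 (0.40), of 4 for complex II 1 (Sdhaf2, 0.33), and of 6 for complex III and 3 for complex V none. The mitochondrial ribosome had 10 of 74 called higher and 1 lower (median 0.24), with Mrps21 at 0.71 ± 0.18. Of the 13 subunits read from mitochondrial DNA, 1 was called higher, mt-Nd6, the complex I subunit on the light strand, at 1.24 ± 0.38 (adjusted p = 0.0342); the median of the 13 was 0.30. The citric acid cycle had 1 called higher and 1 lower of 13, Idh3a (0.34) and Suclg2 (-0.36), with a median of -0.07. Beta-oxidation had 1 of 12 called higher, Etfb (0.80), with a median of -0.07, the inner membrane carriers and porins 1 of 6, Slc25a5 (0.61), and ubiquinone synthesis 1 of 10, Coq9 (0.38). The hypoxia entry called lower was Egln3 (-0.67). Of all genes tested, 11.1% were called higher and 10.1% lower; for the mitochondrial ribosome these shares were 13.5% and 1.35%, and most other lists are too short for their shares to be set beside the background.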

How the data were processed

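The authors deposited raw read counts per Ensembl gene and FPKM values for 14 libraries. Every deposited FPKM equals the count divided by gene length and by 1 constant per library. Per the submitters' processing notes the build was mm10 and DESeq2 was used; the sources used here give no aligner, counter or strand setting. Counts were tested with edgeR 4.0.16 (R 4.3.3): TMM, filterByExpr (15360 of 54532 genes), robust quasi-likelihood, two-sided, all 14 libraries in 1 fit, Benjamini-Hochberg over all genes, called at adjusted p under 0.05. CPM refers to the TMM-scaled total of the genes tested, and intervals are 95%. The test was also run on simulated counts, drawn independently for each gene and without a shift shared within a library. That run does not check the test for genes that move together by library, as these do. Alternatives used other scaling, filters, DESeq2 1.42.0, limma 3.58.1 on log2(FPKM + 1) or log2(FPKM + 0.1), a replicate block and left-out libraries. Named genes are up to 8 called per direction by p, the most abundant of each complex, all Sdh genes, isoform pairs and up to 2 called per list. Members, lists and rules were chosen with earlier results of these data known; Cox5a, Ndufa12, Ndufb2, Ndufb7, Ndufc1, Ndufa11, Ndufs1, Ndufc2, Uqcrc2, Uqcrh, Uqcrb, Atp5e, Atp5j, Cox7a2l and Atp5s were named after their values were seen.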

Additional observations from a re-analysis of the deposited data

Results flagged for a closer look

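In 84 sets of values (25 genes and 3 library measures in each of 3 groups) the library farthest from the rest was examined by its gap to the nearest other library over the group's range; chance gives about 1 in 20 of such sets. Of these, 2 passed the 95% critical value. Ndufa3 stood at 67.6 CPM in PBS 2, against 48.9 to 51.8 CPM in the other 3 PBS libraries; PBS 2 was also the highest PBS library for 66 of the 81 genes. Cox6a2 stood at 3.11 CPM in CTX100 3, against 0.422 to 1.18 CPM in the other 4 CTX100 libraries, and in that library the skeletal muscle markers summed to 230.1 CPM.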

How the results depend on the processing

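All 21 alternatives kept the direction of the 14 genes called at CTX140 against PBS. At CTX140 against PBS, 13 genes were called higher as reported, 6 with limma on log2(FPKM + 1) without a filter, 8 with only the groups compared, 7 with the replicate block and 4 to 38 when single libraries were left out. The 1 called lower became 0 with upper quartile factors, no filter on low counts, only the groups compared or the replicate block, 3 with the gene length trend removed (chosen after seeing the data), and 0 to 2 over left-out libraries. DESeq2 called 1 higher at CTX100 against PBS and 2 between the doses; left-out libraries gave 0 to 9 and 0 to 2. For Atp5b, CTX140 against PBS, the uncalled log2 fold change was -0.0101 without the filter and -0.10 without PBS 2 and PBS 4 (also chosen later), and -0.0796 to 0.0734 over left-out libraries. The causes were not tested. Of all genes tested, the share called at CTX140 against PBS ran from 6.39% (limma without a filter) to 24.8% (without PBS 2), at CTX100 against PBS from 0.0433% (without PBS 2 and PBS 4) to 5.19% (DESeq2), and between the doses from 0% (for example without CTX140 3) to 6.99% (DESeq2). The correlation of deviations between same-numbered libraries of different groups ran from -0.19 to 0.43 (median 0.07), over 0.1 in 6 of 13 pairs. Between differently numbered libraries it ran from -0.36 to 0.33 (median -0.01), over 0.1 in 15 of 52 pairs. Whether replicate numbers pair the libraries is not settled by these values. Depth limits the rare forms: Cox6b2 had 3 to 6 counts in each PBS library.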
